A study of Homo sapiens with 54 samples.

Results

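PMEPA1 and 7 other genes of the feedback on transforming growth factor beta (TGF-beta) and bone morphogenetic protein (BMP) signalling were followed through RNA sequencing of 3 human prostate cancer cell lines. The other members are SMAD7, SMAD6, SKIL, SKI, BMP7, ID1 and ID3. They were chosen by name, 8 of the 19225 genes and other transcripts measured. The name column of the deposited table was empty for PMEPA1, which was found by its gene ID (56937). The other 7 carried their symbols.

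LNCaP is a lymph node metastasis line that responds to androgen, C4-2 is a castration-resistant derivative of LNCaP, and 22Rv1 was derived from a relapsed xenograft. Each line, in serum-containing medium, received for 12 h the ethanol vehicle, E2 (estradiol, 100 nM), Enza (enzalutamide, an antiandrogen drug, 1 µM), OSU (OSU-ERb-12, 100 nM), E2 with Enza, or OSU with Enza. Whether steroids had been removed from the serum is not given in the sources used here. There were 18 groups of 3 libraries, biological triplicates per the labels. All groups carry the label WT for genotype, and the sample titles mark the OSU groups with the same letters. For OSU alone the treatment labels name OSU-ERb-12. For OSU with Enza the treatment labels read WT (100 nM) plus enzalutamide and do not name OSU. That these groups received OSU was inferred from the shared letters WT. The 54 libraries held 32819568 to 52417050 reads in genes, and 1 read was worth 0.0204 to 0.0323 CPM (read counts relative to library size, in the usual unit).

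The luminal prostate genes HOXB13 (209 to 589 CPM), KRT8 (121 to 334 CPM) and FOLH1 (344 to 999 CPM) were present in every library. The luminal gene KLK3 was far lower in 22Rv1 (4.34 to 22.3 CPM) than in LNCaP (385 to 1620) and C4-2 (1360 to 2570). Of 15 listed basal, fibroblast, leukocyte and endothelial markers 6 were in the table. These were KRT14 (0 to 1.77 CPM), LUM (0 to 0.392), PDGFRB (0.268 to 1.95), COL1A1 (2.12 to 20.2), CD68 (4.02 to 10.3) and VWF (0 to 18.7). The library C4-2 vehicle 1 carries the cell line tag of 22Rv1 but is titled C4-2, and its correlation over genes was 0.9984 with the other C4-2 libraries, against 0.975 with LNCaP and 0.8987 with 22Rv1. Libraries C4-2 E2 3 and 22Rv1 vehicle 3 had 0.149% and 0.196% of reads in mitochondrial ribosomal RNA against a median of 0.0435%. Library 22Rv1 OSU+Enza 2 had 15.1% of reads in small noncoding RNA, against 11.6% and 10.9% in the others of its group. These 4 libraries, below called those that stand apart, were set aside without an outlier test. Leaving out C4-2 vehicle 1 ended 1 call among the 8 genes, and leaving out all 4 together ended 1 other. Both are named beside their results.

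TGF-beta and BMP ligands bind pairs of receptor kinases that phosphorylate SMAD proteins, which enter the nucleus and switch target genes. Many targets act back on the pathway. PMEPA1 is a membrane protein that binds receptor-activated SMADs and keeps them from the receptor, and it is known both as a TGF-beta target and as an androgen-induced gene of the prostate. SMAD7 and SMAD6 are inhibitory SMADs, SMAD7 acting on TGF-beta and BMP receptors and SMAD6 mainly on BMP receptors. SKI and SKIL (SnoN) are nuclear co-repressors that bind SMAD complexes. BMP7 is a secreted BMP ligand. ID1 and ID3 encode inhibitors of basic helix-loop-helix transcription factors and are classical direct BMP targets.

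RefSeq start-site windows of GRCh38.p14 (250 bases before to 50 after a start) were found for 6 of the 8 genes, 11 windows in all. SKI and BMP7 had none. These were searched on both strands for the androgen response half-site AGAACA, the SMAD palindrome GTCTAGAC and the BMP-type GC element GGCGCC. The half-site lay in 14.8% of all 35116 windows, the palindrome in 0.202% and the GC element in 19.2%. The half-site was found in windows of PMEPA1, SMAD6 and ID1, genes whose responses differ below, and for this reason the 250 bases before their starts are shown. Capitals mark matches, with the half-site read as TGTTCT on the opposite strand. The PMEPA1 stretch is the second of its 4 windows (chr20:57710578-57710827, minus strand), the SMAD6 stretch is chr15:66701986-66702235 (plus strand), and the ID1 stretch is chr20:31605039-31605288 (plus strand).
PMEPA1: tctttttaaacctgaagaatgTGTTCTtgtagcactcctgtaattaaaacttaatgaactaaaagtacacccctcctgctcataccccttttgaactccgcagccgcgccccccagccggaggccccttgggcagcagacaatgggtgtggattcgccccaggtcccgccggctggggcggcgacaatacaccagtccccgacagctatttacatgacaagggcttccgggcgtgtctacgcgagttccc
SMAD6: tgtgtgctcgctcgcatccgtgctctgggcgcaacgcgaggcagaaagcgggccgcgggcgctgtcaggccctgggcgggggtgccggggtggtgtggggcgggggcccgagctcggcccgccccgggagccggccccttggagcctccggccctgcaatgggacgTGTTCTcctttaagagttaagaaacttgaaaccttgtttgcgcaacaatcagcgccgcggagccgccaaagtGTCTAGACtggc
ID1: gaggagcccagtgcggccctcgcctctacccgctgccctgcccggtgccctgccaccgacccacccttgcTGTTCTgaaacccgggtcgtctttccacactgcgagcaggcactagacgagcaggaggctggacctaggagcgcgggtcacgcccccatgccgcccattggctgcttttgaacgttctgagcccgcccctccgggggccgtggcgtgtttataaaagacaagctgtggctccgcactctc
Counted from the start site, the half-site began at -229 in PMEPA1, -84 in SMAD6 and -180 in ID1, and the SMAD palindrome of SMAD6 at -12. The first PMEPA1 window also held a half-site at 23 bases after its start and the GC element at -207, and the SKIL window held the GC element at -190. The windows of SMAD7 and ID3 held none of the 3. The shorter SMAD half-site GTCT was also searched, and it lay in 84% of all windows and in each of the 11 windows here. These are letter matches, and binding was not measured. No window of the 8 genes held the full palindromic androgen or estrogen response element, which lay in 0.00285% and 0.057% of all windows.

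PMEPA1 rose with E2 and fell with Enza in all 3 lines, and E2 given with Enza brought it above the vehicle level. It lies on chromosome 20 (57648396 to 57711472, GRCh38.p14). In LNCaP the 3 vehicle libraries held 129, 112 and 114 CPM, the E2 libraries 311, 294 and 293, and the Enza libraries 41.0, 41.0 and 41.3. With E2 and Enza together the values were 227, 211 and 213 CPM. The 4 groups did not overlap, and the order was Enza, vehicle, E2 with Enza, E2. In C4-2 the vehicle libraries held 183, 172 and 169 CPM, the E2 libraries 397, 419.8 and 401, the Enza libraries 49.6, 48.5 and 49.6, and those with both 239, 211 and 239. In 22Rv1 the levels were lower throughout, at 29.9, 29.0 and 31.6 CPM with vehicle, 75.4, 71.8 and 63.3 with E2, 14.1, 14.7 and 13.6 with Enza, and 50.2, 53.7 and 56.8 with both. The same order held in each line, with no overlap between the 4 groups.

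**Figure D1:**
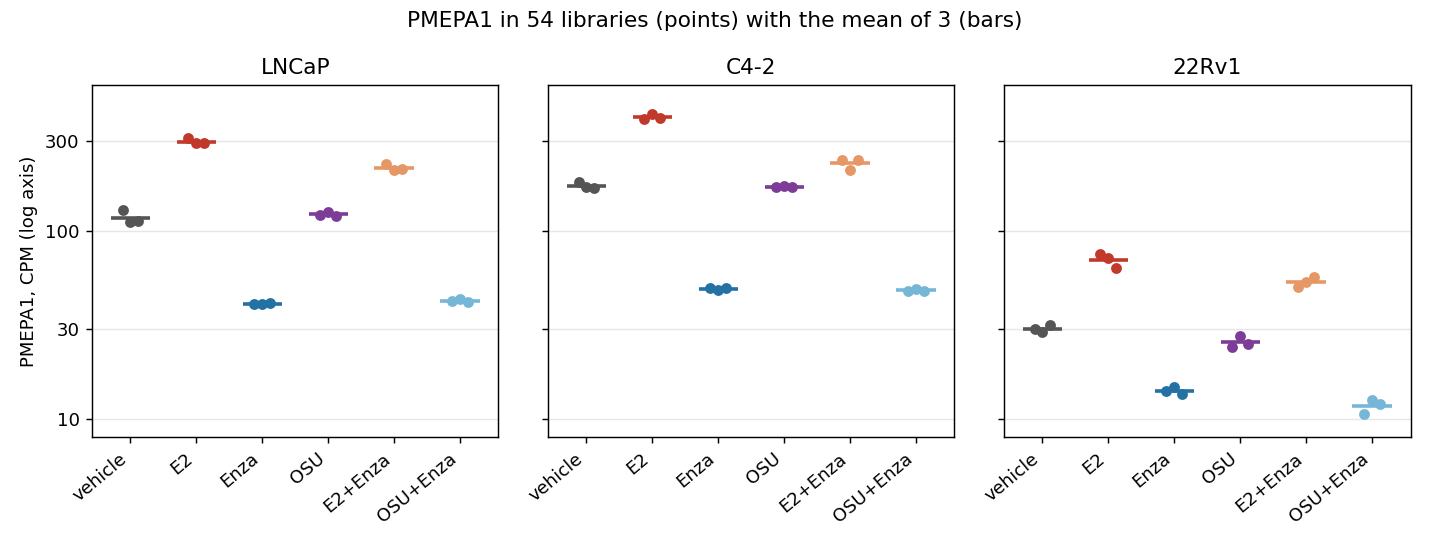
PMEPA1 in CPM (log axis) in each of the 54 libraries (points) with the mean of 3 (bars), by treatment and line. In each line E2 stands highest and the 2 groups with Enza but no E2 stand lowest, at 41.1 and 42.6 CPM in LNCaP, while OSU lies near vehicle.

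Changes were tested with limma on log2(CPM + 0.5), each line fitted alone, with Benjamini-Hochberg adjustment over all genes tested and a call at an adjusted p under 0.05. The ± after a log2 change is its SE, and groups have n = 3. With E2 PMEPA1 rose by 1.34 ± 0.04 in LNCaP (limma adjusted p = 9.68e-20), 1.22 ± 0.04 in C4-2 (2.96e-16) and 1.199 ± 0.072 in 22Rv1 (2.03e-13), or 2.53-, 2.32- and 2.30-fold. With Enza it changed by -1.51 ± 0.04 in LNCaP (limma adjusted p = 9.29e-21), -1.81 ± 0.04 in C4-2 (4.15e-20) and -1.07 ± 0.07 in 22Rv1 (6.40e-11), to 0.352, 0.284 and 0.477 times vehicle. E2 added to Enza raised it over Enza alone by 2.38 ± 0.04, 2.21 ± 0.04 and 1.88 ± 0.07, or 5.23-, 4.62- and 3.69-fold, and Enza added to E2 lowered it by -0.46 ± 0.04, -0.82 ± 0.04 and -0.38 ± 0.07, in the same order of lines. Net of both agents it stood above vehicle by 0.88 ± 0.04 in LNCaP, 0.39 ± 0.04 in C4-2 and 0.82 ± 0.07 in 22Rv1. Each of these values passed the limma test. PMEPA1 was the one member called for Enza added to E2, where 13.5%, 3.46% and 1.2% of genes were called in LNCaP, C4-2 and 22Rv1. For both agents against vehicle 2 of 7 members were called in LNCaP (7.42% of genes), 1 of 8 in C4-2 (0.0784%) and 2 of 7 in 22Rv1 (13.8%), PMEPA1 among them each time. The count in 22Rv1 went from 2 to 4 at total read scaling, with SMAD7 (-0.20) and SKIL (-0.22) added, both lower. SKIL, which missed the threshold in the main fit (limma adjusted p = 0.0577), also passed with TMM (0.0263), cyclic loess (0.0118) and the fit of all 54 libraries (0.0304). These comparisons share the vehicle, E2 or Enza libraries.

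On the log2 scale the effect of E2 was larger in the presence of Enza. In mean CPM, E2 took LNCaP from 118 to 299.5 without Enza and from 41.1 to 216.9 with it. In C4-2 the means went from 174.5 to 405.8 and from 49.2 to 229.7, and in 22Rv1 from 30.2 to 70.2 and from 14.1 to 53.6. The gain in CPM was thus not larger with Enza in any line, and it was not tested on that scale. The interaction, the effect of E2 with Enza minus its effect without, was 1.04 ± 0.06 in LNCaP (limma adjusted p = 7.19e-13), 0.99 ± 0.06 in C4-2 (6.40e-11) and 0.68 ± 0.10 in 22Rv1 (0.00049). Over all genes the interaction called 9.05% in LNCaP, 1.5% in C4-2 and 0.424% in 22Rv1. Among the other members only SKIL in LNCaP passed this test.

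Over the 18 groups the mean PMEPA1 level ran from 406 ± 12.3 CPM (C4-2 with E2) to 11.8 ± 1.05 CPM (22Rv1 with OSU and Enza). Behind the first came LNCaP with E2 (299.5 ± 10.3 CPM) and then both agents in C4-2 (229.7 ± 16.2) and LNCaP (217 ± 8.59), whose libraries overlapped. C4-2 vehicle (174 ± 7.07) overlapped C4-2 OSU (172 ± 1.94), LNCaP OSU (123 ± 2.71) overlapped LNCaP vehicle (118 ± 9.34), and C4-2 Enza (49.2 ± 0.60) overlapped C4-2 OSU with Enza (48.5 ± 0.63). The E2 group of 22Rv1 (70.2 ± 6.20 CPM) stood below the vehicle group of either other line. The remaining neighbours in this order did not overlap.

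At vehicle, PMEPA1 was 0.56 ± 0.06 (log2) higher in C4-2 than in LNCaP (limma fit of all 54 libraries, adjusted p = 1.87e-12) and 1.95 lower in 22Rv1, a log2 difference of -1.95 ± 0.06 (5.50e-34). The E2 effect was not called different between lines, the difference from LNCaP being -0.13 (95% interval -0.29 to 0.03) for C4-2 and -0.14 (-0.30 to 0.02) for 22Rv1, in tests that called 8.41% and 11.2% of genes. The Enza effect differed between all 3 lines. It was more negative in C4-2 than in LNCaP by -0.31 ± 0.08 (limma adjusted p = 0.017) and less negative in 22Rv1 than in LNCaP by 0.44 ± 0.08 (0.000123) and than in C4-2 by 0.75 ± 0.08 (2.13e-09). The first of these lost its call without LNCaP vehicle 2 (adjusted p = 0.062) or without the doubtful library C4-2 vehicle 1 (0.066). The limma test of line differences called 4.99% of genes for the Enza effect between C4-2 and LNCaP, 4.49% between 22Rv1 and LNCaP and 11.3% between 22Rv1 and C4-2.

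**Figure D2:**
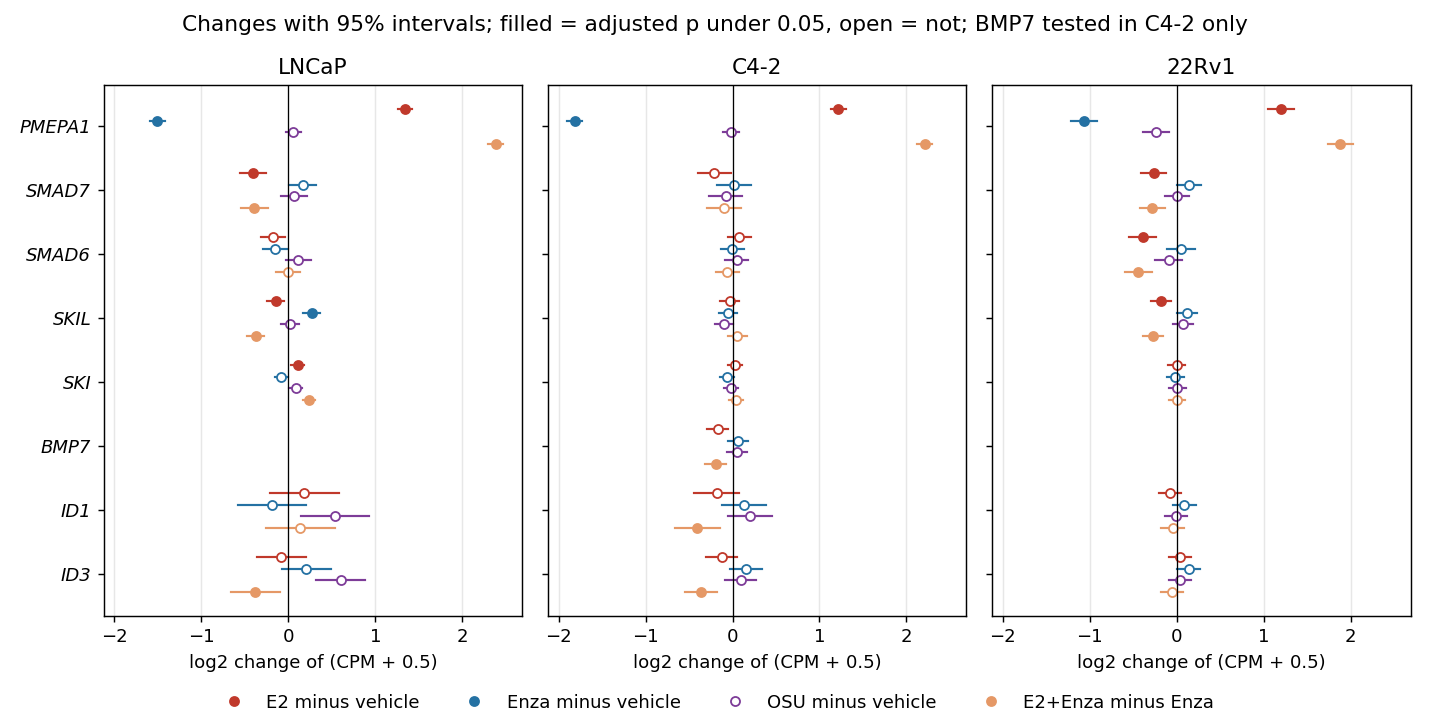
Log2 changes of the 8 genes (points) with 95% intervals (lines) for 4 comparisons in each line. Filled points passed an adjusted p of 0.05 and open ones did not; PMEPA1 spans from -1.81 to 2.38, and the largest other change drawn is 0.60 (ID3 with OSU in LNCaP).

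With E2, 4 of the 7 members tested were called in LNCaP (limma; 24.9% of 14251 genes), 1 of 8 in C4-2 (5.82% of 14027) and 4 of 7 in 22Rv1 (27.7% of 14866). PMEPA1 rose in each line and SKI in LNCaP, and the other calls were lower values. With Enza, 2 of 7 were called in LNCaP (20.4% of genes), PMEPA1 lower and SKIL higher, and PMEPA1 alone in C4-2 (8.44%) and 22Rv1 (0.659%). The median member changed by -0.08 with E2 in each line, against -0.01, -0.03 and 0.03 over all genes tested in LNCaP, C4-2 and 22Rv1. In LNCaP the E2 count fell from 4 to 2 without E2 library 2. BMP7 stayed below the expression filter in LNCaP and 22Rv1 and was tested in C4-2 alone.

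The inhibitory SMADs fell with E2, SMAD7 in LNCaP and 22Rv1 and SMAD6 in 22Rv1. SMAD7 (chromosome 18, 48919853 to 48950965) stood at 12.7, 12.5 and 12.4 CPM in LNCaP vehicle and at 9.76, 9.26 and 8.96 with E2, all below vehicle. It fell by 0.41 ± 0.07 on the log2 scale (limma adjusted p = 0.000111), and with E2 added to Enza it changed by -0.39 ± 0.07 (0.000183). In 22Rv1 SMAD7 was at 36.3, 37.1 and 34.99 CPM with vehicle and 28.2, 33.7 and 28.2 with E2, a change of -0.27 ± 0.07 (limma adjusted p = 0.00504). E2 added to Enza gave -0.28 ± 0.07 there (0.007), a call lost without E2 with Enza library 1 (-0.22, 0.0813). In C4-2, with 8.42, 8.12 and 8.55 CPM in vehicle and 7.43, 7.30 and 6.78 with E2, the groups again did not overlap, but the change of -0.21 ± 0.09 was not called (limma adjusted p = 0.205), and the E2 effect was not called different between C4-2 and LNCaP (0.20, 95% interval -0.02 to 0.42). Enza alone left SMAD7 without a call in any line, at 0.16, 0.02 and 0.14.

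SMAD6 (chromosome 15, 66702236 to 66782849) fell with E2 in 22Rv1, and its E2 effect differed there from that in C4-2. In 22Rv1 it went from 15.84, 15.04 and 15.83 CPM with vehicle to 12.6, 11.3 and 11.4 with E2, with no overlap (-0.39 ± 0.08, limma adjusted p = 0.000476), and from 15.3, 15.3 and 17.8 CPM with Enza to 10.7, 12.1 and 12.5 with both (-0.44 ± 0.08, 0.000161). It also stayed below vehicle with both agents (-0.39 ± 0.08, 0.000895). In C4-2 the vehicle libraries held 24.1, 23.6 and 22.95 CPM and the E2 libraries 23.85, 25.7 and 25.1, which overlap (0.08 ± 0.06, not called). The difference in E2 effect between 22Rv1 and C4-2 was -0.47 ± 0.10 (limma adjusted p = 0.000558; 28.8% of genes were called). In LNCaP, where vehicle held 20.9, 18.4 and 18.4 CPM and E2 17.9, 16.3 and 16.5 without overlap, the change of -0.18 ± 0.07 missed the threshold (limma adjusted p = 0.0557) and passed it in 4 alternative analyses (0.0151 to 0.0486). With Enza SMAD6 in LNCaP was at 17.6, 16.9 and 17.2 CPM, all below vehicle (-0.15 ± 0.07, limma adjusted p = 0.124), the direction PMEPA1 took, and in C4-2 and 22Rv1 its Enza changes were -0.01 ± 0.06 and 0.05 ± 0.08, none called.

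The co-repressor SKIL (chromosome 3, 170357715 to 170396849) rose with Enza in LNCaP, from 41.8, 38.1 and 36.6 CPM to 46.2, 49.8 and 44.7 (0.27 ± 0.05, limma adjusted p = 0.000144), and all 3 Enza libraries were above vehicle. In C4-2 the Enza libraries (39.2, 36.6 and 37.0 CPM) overlapped vehicle (37.8, 39.2 and 40.3 CPM), and the Enza effect differed from that in LNCaP by -0.32 ± 0.07 (0.00567), though not at total read scaling (-0.27, 0.0555). In 22Rv1 the Enza libraries (63.7, 60.1 and 63.6 CPM) all lay above vehicle (55.8, 58.2 and 58.8 CPM). The change there, 0.12, was not called (limma adjusted p = 0.331). With E2 the SKIL change was -0.14 ± 0.05 in LNCaP (limma adjusted p = 0.0273) and -0.18 ± 0.06 in 22Rv1 (0.0154). The first call was lost without vehicle library 1 or any 1 of the 3 E2 libraries (adjusted p 0.0504 to 0.211), the second without vehicle library 2 or 3 or E2 library 1 (0.0506 to 0.0572). Against an Enza background the E2 change was -0.38 ± 0.05 in LNCaP (limma adjusted p = 5.46e-07) and -0.27 ± 0.06 in 22Rv1 (0.00121), with 0.06 ± 0.05 and no call in C4-2. The interaction was not called in 22Rv1 (-0.09 ± 0.08, limma adjusted p = 0.623). In LNCaP the interaction, -0.23 ± 0.07 (limma adjusted p = 0.0289), was lost at total read scaling (0.122) and on leaving out any 1 of 6 libraries (0.0515 to 0.0814): vehicle 2 or 3, E2 1 or 2, Enza 2, or E2 with Enza 3.

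SKI (chromosome 1, 2228319 to 2310213), the other co-repressor, rose with E2 added to Enza in LNCaP. The Enza libraries held 154, 157 and 152 CPM and those with both agents 182, 184 and 181, without overlap (0.24 ± 0.04, limma adjusted p = 4.13e-06). With both agents SKI also exceeded vehicle (169, 163 and 158 CPM), by 0.16 ± 0.04 (0.00328). E2 alone gave 0.11 ± 0.04 (limma adjusted p = 0.0252), with overlapping libraries. That call was lost at total read scaling (0.05, adjusted p = 0.369), with cyclic loess (0.09, 0.0646) and on leaving out any 1 of vehicle 2, vehicle 3, E2 1 and E2 2 (0.0655 to 0.171). In C4-2 and 22Rv1 SKI changes with E2 were 0.03 ± 0.04 and 0.00 ± 0.05, with no call.

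**Figure D3:**
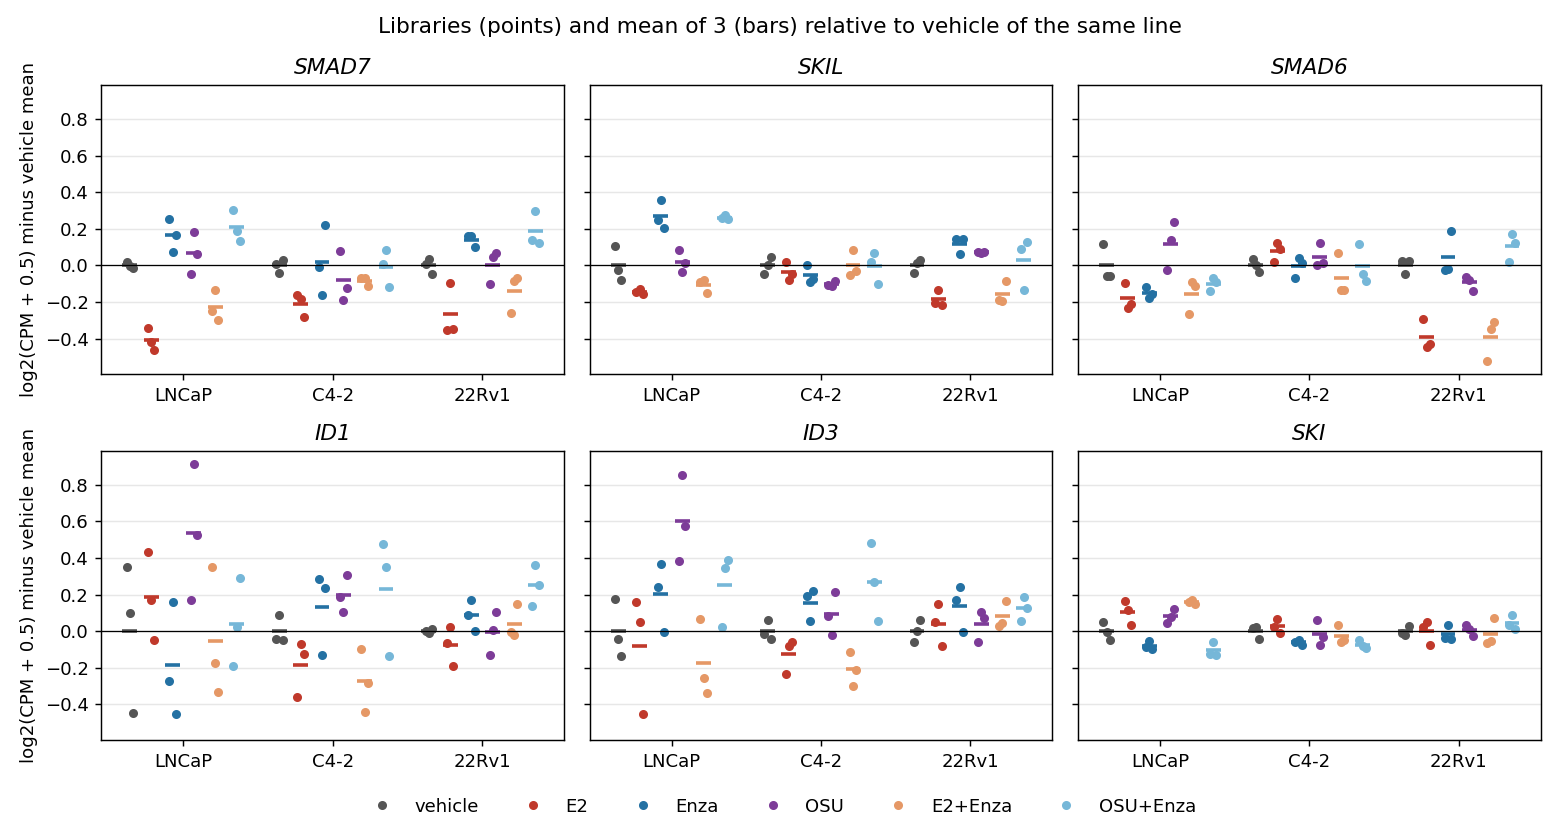
Log2(CPM + 0.5) of 6 genes in each library (points) and the mean of 3 (bars), relative to the mean of vehicle in the same line. SMAD7 and SKIL lie lower with E2 (red) in LNCaP and 22Rv1, SMAD6 in 22Rv1 by 0.39, and ID1 and ID3 scatter most in LNCaP.

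BMP7 (chromosome 20, 57168753 to 57266641) was expressed in C4-2 and barely in the other lines. At vehicle it stood at 45.1, 42.3 and 41.2 CPM in C4-2, at 0.21, 0.41 and 0.22 in LNCaP and at 0.07, 0.09 and 0 in 22Rv1. Over all treatments it ran from 1427 to 2061 reads in a C4-2 library, 4 to 20 in LNCaP and 0 to 4 in 22Rv1. The ratio of mean CPM between C4-2 and LNCaP vehicle was 154. The fitted log2 difference of 5.81 ± 0.11 depends on the 0.5 CPM added to every value, and was 6.865 with 0.1 and 4.30 with 2. In LNCaP the E2 libraries held 0.09, 0.13 and 0.11 CPM, below vehicle, a difference of a few reads that was not tested. In C4-2 the E2 libraries held 39.9, 38.9 and 35.2 CPM, all below vehicle, at -0.17 ± 0.06 (limma adjusted p = 0.0737, not called). Enza libraries were at 44.4, 45.2 and 44.9 CPM and those with both agents at 40.1, 35.5 and 41.9, all lower (-0.20 ± 0.06, 0.0327). That call was lost without any 1 of the Enza libraries or E2 with Enza library 2 (adjusted p 0.0685 to 0.201), with no filter (0.0509) and in the fit of all 54 libraries (0.383).

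ID1 (chromosome 20, 31605289 to 31606510) and ID3 (chromosome 1, 23557926 to 23559501) differed between lines at vehicle. There ID1 was at 11.04, 9.19 and 6.14 CPM in LNCaP, 13.0, 14.2 and 12.9 in C4-2 and 128.5, 127.5 and 129.8 in 22Rv1. ID3 was at 13.4, 11.4 and 10.7 CPM in LNCaP, 15, 15.85 and 14.7 in C4-2 and 299, 311 and 324 in 22Rv1. The level in 22Rv1 was thus 3.83 ± 0.16 (log2) above LNCaP for ID1 (limma adjusted p = 1.10e-26) and 4.67 ± 0.12 for ID3 (7.36e-37), or 14.6 and 26.4 times its mean CPM. Neither gene was called with E2 or Enza against vehicle in any line, though with cyclic loess ID1 passed for E2 in 22Rv1 (-0.16, limma adjusted p = 0.0416). With E2 added to Enza in C4-2, ID3 went from 17.4, 15.8 and 17.8 CPM to 14.01, 12.2 and 13.1 (-0.36 ± 0.09, limma adjusted p = 0.00879) and ID1 from 16.4, 12.2 and 15.8 to 12.5, 9.73 and 10.9 (-0.40 ± 0.13, 0.0472). There the ID1 libraries overlapped and those of ID3 did not. ID3 also passed in LNCaP (-0.38 ± 0.14, limma adjusted p = 0.0466), where its libraries overlapped. These 3 calls were lost without single libraries: ID3 in C4-2 without Enza 3 or E2 with Enza 2 (adjusted p 0.0523 to 0.0553), ID1 in C4-2 without Enza 1 or 3 or E2 with Enza 2 or 3 (0.105 to 0.204), and ID3 in LNCaP without Enza 1 or 2 or E2 with Enza 2 or 3 (0.122 to 0.198). ID3 in LNCaP was also lost with no filter (limma adjusted p = 0.106), cyclic loess (0.0515) and voom weights (0.0614). ID1 in C4-2 was also lost with no filter (0.108), in the fit of all 54 libraries (0.147), with voom weights (0.0534) and with a replicate block (0.0582).

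For E2 added to Enza, 5 of 7 members were called in LNCaP (23.1% of genes were called), 4 of 8 in C4-2 (7.38%) and 4 of 7 in 22Rv1 (7.94%). PMEPA1 was higher in each line and SKI in LNCaP. The members called lower were SMAD7, SKIL and ID3 in LNCaP, BMP7, ID1 and ID3 in C4-2, and SMAD7, SMAD6 and SKIL in 22Rv1. Of the 4 calls in C4-2, 2 were left without Enza library 1 and 1 without Enza library 3 or without E2 with Enza library 2.

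**Figure D4:**
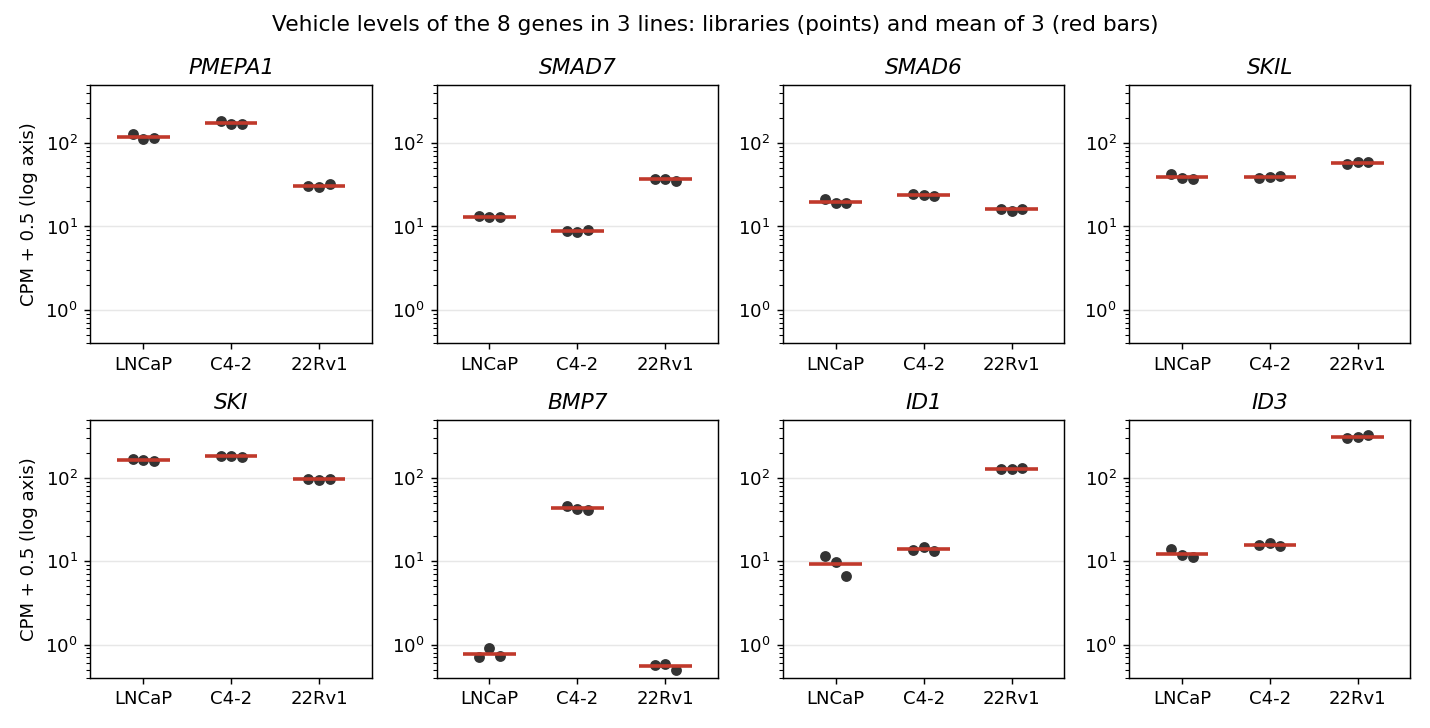
CPM + 0.5 (log axis) of the 8 genes in the 3 vehicle libraries of each line (points) and their mean (red bars). BMP7 stands out in C4-2 (42.8 CPM), ID1 (129 CPM) and ID3 (311 CPM) in 22Rv1, and PMEPA1 is lowest in 22Rv1 (30.2 CPM).

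At vehicle the lines differed in most members, as in most genes. Between C4-2 and LNCaP 7 of 8 members were called (66.7% of 16026 genes), between 22Rv1 and LNCaP 8 (83.3%) and between 22Rv1 and C4-2 8 (84.7%), so that these counts lie near those over all genes. SKIL did not differ by call between C4-2 and LNCaP (0.01, 95% interval -0.09 to 0.11). SMAD7 was lower in C4-2 than in LNCaP (-0.56 ± 0.08) and higher in 22Rv1 (1.49 ± 0.08), the reverse of PMEPA1. SMAD6 was 0.29 ± 0.07 higher in C4-2 than in LNCaP and differed by -0.29 ± 0.07 in 22Rv1. SKI differed from LNCaP by 0.16 ± 0.04 in C4-2 and -0.76 ± 0.04 in 22Rv1, and SKIL by 0.56 ± 0.05 in 22Rv1. With total read scaling the median over all genes stood at -0.10 between C4-2 and LNCaP and at 0.22 between 22Rv1 and C4-2. Under it the C4-2 differences of SKI (0.04, limma adjusted p = 0.439) and ID3 (0.24, 0.068, against 0.36 ± 0.12) lost their calls, and with cyclic loess SKI lost its call too (0.02, adjusted p = 0.685).

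OSU called none of the 8 genes against vehicle in any line (limma; 0.014% of genes called in LNCaP, 0% in C4-2 and 0% in 22Rv1). At an unadjusted p under 0.05 there were 3 members in LNCaP (SKI, ID1 and ID3), 0 in C4-2 and 1 in 22Rv1 (PMEPA1), and voom weights called 0 in each line. PMEPA1 with OSU was at 122, 126 and 120.5 CPM in LNCaP and 171, 175 and 172 in C4-2, overlapping vehicle, with 95% intervals of the log2 change of -0.03 to 0.14 and -0.10 to 0.07. In 22Rv1 it was at 24.1, 27.7 and 25.0 CPM, all below vehicle (-0.24, interval -0.38 to -0.09, limma adjusted p = 1). OSU added to Enza called none of the members over Enza alone (0.0982%, 0% and 0.101% of genes called in LNCaP, C4-2 and 22Rv1), and at an unadjusted p under 0.05 the members numbered 0, 0 and 2, against 0 in each line under voom. On this background PMEPA1 was at 10.6, 12.6 and 12.1 CPM in 22Rv1 with OSU, all below Enza alone (-0.26, interval -0.41 to -0.11, 0.194). The mean OSU effect on PMEPA1 over the lines was -0.07 ± 0.03 (limma adjusted p = 0.978), and for OSU added to Enza -0.08 ± 0.03 (0.337), where 0% and 0.443% of genes were called. ID3 in LNCaP was at 15.5, 21.7 and 17.8 CPM with OSU, all above vehicle (0.60 ± 0.14, limma adjusted p = 0.235), and ID1 at 9.69, 16.6 and 12.5 (0.54 ± 0.19, 0.674), overlapping vehicle.

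OSU and E2 were given at the same 100 nM for 12 h, so their libraries were set against each other directly for 22 pairs of gene and line. PMEPA1 was lower with OSU than with E2 in every line, by -1.28 ± 0.04, -1.23 ± 0.04 and -1.43 ± 0.07 (limma, largest adjusted p = 2.92e-15). In LNCaP 5 of 7 members were called over all genes (24.6% called), in C4-2 2 of 8 (5.95%) and in 22Rv1 4 of 7 (22%). These were PMEPA1 and the following. SMAD7 was higher with OSU in LNCaP (0.47 ± 0.07) and 22Rv1 (0.27 ± 0.07), SMAD6 in LNCaP (0.30 ± 0.07) and 22Rv1 (0.30 ± 0.08), SKIL in 22Rv1 (0.26 ± 0.06) and LNCaP (0.16 ± 0.05), and ID3 in LNCaP (0.68 ± 0.14). The SMAD7 libraries overlapped in 22Rv1. Each difference is the OSU change from vehicle minus the E2 change, and OSU called none of these genes against vehicle. The SKIL call in LNCaP was lost without OSU library 1 (limma adjusted p = 0.0846). BMP7 was higher with OSU in C4-2 (0.23 ± 0.06, limma adjusted p = 0.0132), a call lost without OSU library 2 (0.0509) and without E2 library 3, alone (0.125) or with the other 3 libraries that stand apart (0.12), and in the fit of all 54 libraries (0.238). SKI did not differ by call in any line, with 95% intervals of -0.09 to 0.05, -0.12 to 0.04 and -0.09 to 0.10.

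Of 69 other genes of both pathways listed by role, 64 were in the table. With E2 in LNCaP 10 of 47 tested were called higher and 11 lower (24.9% of all genes were called), in C4-2 4 and 5 of 50 (5.82%), and in 22Rv1 10 and 10 of 60 (27.7%). With Enza the counts were 7 and 9 (20.4%), 2 and 5 (8.44%), and 0 and 2 (0.659%), and with OSU 0 in each line (6, 1 and 3 at an unadjusted p under 0.05). The list's median E2 changes, -0.04, -0.03 and 0.00, lay close to those of all genes. By role, with E2 the receptors had 3 of 11 higher and 0 lower in LNCaP, and 1 higher and 1 lower in C4-2 (of 11) and in 22Rv1 (of 12). The ligands had 1 of 6 higher and 4 lower in LNCaP, 1 and 1 of 8 in C4-2, and 1 and 3 of 12 in 22Rv1, and the targets 4 and 4 of 12, 2 and 1 of 13, and 6 and 4 of 15.

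Among the genes with the smallest p, BAMBI, a pseudoreceptor that blocks signalling, fell with E2 in LNCaP (-0.57 ± 0.05) and C4-2 (-0.59 ± 0.05) and rose with Enza in both (0.76 ± 0.05 and 0.39 ± 0.05). BMPR1B, a type I BMP receptor, moved with PMEPA1, at 0.71 ± 0.04 with E2 and -0.35 ± 0.04 with Enza in LNCaP and 0.44 ± 0.05 and -0.45 ± 0.05 in C4-2. NEDD4L, a ubiquitin ligase for activated SMADs, rose with E2 in 22Rv1 (0.74 ± 0.06) and fell with Enza in LNCaP (-0.53 ± 0.03) and C4-2 (-0.17 ± 0.04). TSC22D1, a TGF-beta-stimulated transcription regulator, rose with E2 in all 3 lines (0.78 ± 0.03, 0.18 ± 0.04 and 0.89 ± 0.05). SNAI2, a transcription factor of epithelial plasticity, rose with E2 (2.49 ± 0.17) and fell with Enza (-1.93 ± 0.17) in LNCaP. In LNCaP E2 lowered the matrix protein fibronectin FN1 (-0.39 ± 0.05) and the deubiquitinase USP15 (-0.24 ± 0.04), and Enza raised the cell cycle inhibitor CDKN1A (0.34 ± 0.04) and the co-repressor TGIF1 (0.29 ± 0.05). In C4-2 E2 lowered SMAD1 (-0.31 ± 0.06) and TGFBR3 (-0.30 ± 0.06), the co-receptor betaglycan, and Enza lowered TGFBR3 (-0.27 ± 0.06) and raised the collagen COL1A1 (0.35 ± 0.10). In 22Rv1 E2 raised ID4 (0.59 ± 0.06) and lowered the ligand BMP2 (-0.48 ± 0.06), the matrix protein CCN1 (-0.57 ± 0.10) and SMAD3 (-0.33 ± 0.06), and Enza lowered FN1 (-0.66 ± 0.07) and CCN1 (-0.41 ± 0.10). All of these passed the limma test at the threshold above.

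Likeness to PMEPA1 was measured as Pearson's r over 15 changes of group means against vehicle (5 treatments in 3 lines) for 12858 genes. The 5 changes of a line share its vehicle libraries, so r is a description. The genes most like PMEPA1 were INPP4B, a phosphoinositide phosphatase (0.982), SLC45A3, the transporter prostein (0.975), CHSY1, a chondroitin synthase (0.973), PHF8, a histone demethylase (0.964), and TRIM36, a ubiquitin ligase (0.961). INPP4B changed less than PMEPA1, by 0.64 ± 0.08 with E2 and -0.77 ± 0.08 with Enza in LNCaP, and CHSY1 by 0.14 ± 0.03 and -0.12 ± 0.03. SLC45A3 changed by 1.43 ± 0.04 and -1.68 ± 0.04 there. CHSY1 was not called with E2 in C4-2 (limma adjusted p = 0.0927) or 22Rv1 (0.0758). With Enza in 22Rv1 none of CHSY1 (-0.01 ± 0.06, limma adjusted p = 0.936), PHF8 (0.0803) and TRIM36 (0.123) was called. Opposite to PMEPA1 were GALNT3, a glycosyltransferase (-0.959), the homeobox gene HOXC12 (-0.956) and AMIGO2, a membrane adhesion protein (-0.951). Against vehicle, HOXC12 was called with Enza in LNCaP and with E2 in 22Rv1, but not with E2 or Enza otherwise. The androgen-responsive readout genes had r of 0.904 (TMPRSS2), 0.900 (FKBP5) and 0.890 (KLK3), at ranks 94, 103 and 128 of the 12858 genes. TMPRSS2 was not called with Enza in 22Rv1 (-0.04 ± 0.08, limma adjusted p = 0.86).

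**Figure D5:**
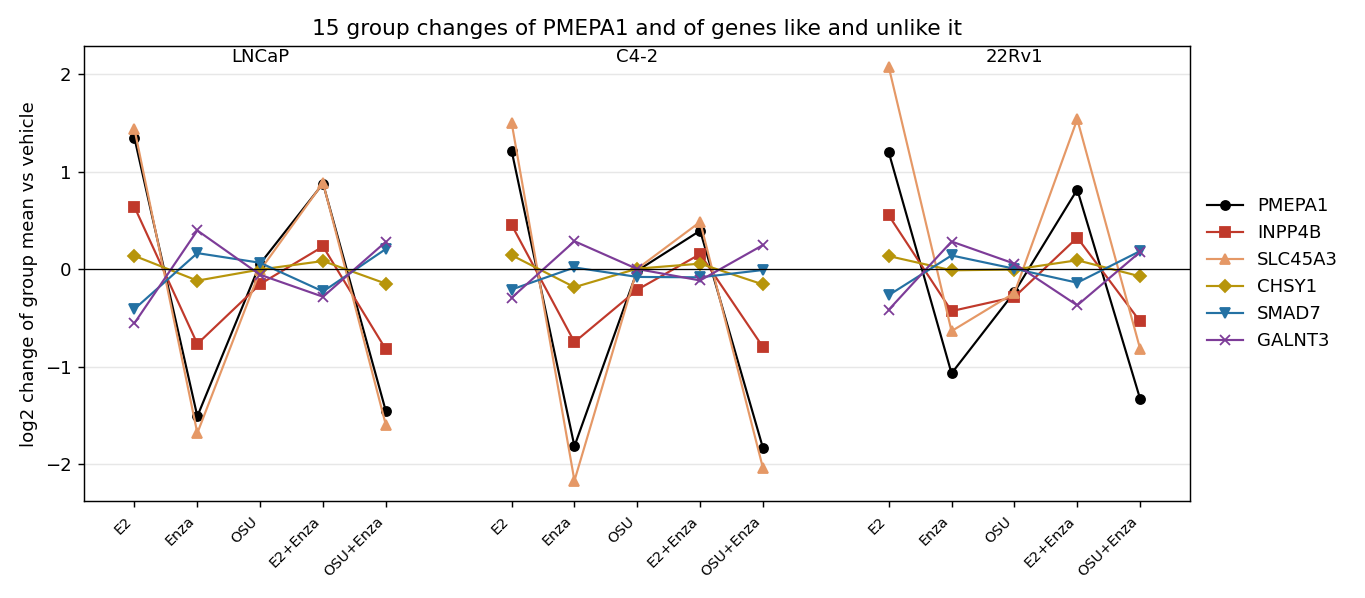
Log2 changes of group means against vehicle for 5 treatments in each line. INPP4B, SLC45A3 and CHSY1 follow PMEPA1 (r of 0.982, 0.975 and 0.973) with different sizes of change, and SMAD7 (-0.849) and GALNT3 (-0.959) run opposite. SMAD7 is nearly flat in C4-2 with Enza (0.017) and with OSU and Enza (-0.009).

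Within the 8 genes PMEPA1 was most like SKI (0.653) and least like SMAD7 (-0.849), with BMP7 at -0.751, SKIL at -0.675, ID3 at -0.534, SMAD6 at -0.426 and ID1 at -0.237. SMAD7 and SKIL were most like each other (0.821), as were ID1 and ID3 (0.723), and SMAD6 and BMP7 were most like SMAD7 (0.471 and 0.696). The value for BMP7 includes the changes in LNCaP and 22Rv1, where it had 20 reads or fewer per library. The SKI changes behind its value were small, from -0.105 (LNCaP OSU with Enza) to 0.161 (LNCaP E2 with Enza). In C4-2 and 22Rv1 they lay between -0.074 and 0.044. NKILA overlaps PMEPA1, BMP7-AS1 and LOC112268270 overlap BMP7, and LOC124903876 overlaps ID3. None of these overlapping genes was in the table. Whether reads were counted by strand is not given in the sources used here. It is therefore not known whether the values of PMEPA1, BMP7 and ID3 include reads of their partners.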

How the data were processed

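Total RNA of 54 libraries (TruSeq stranded kit, per the labels) was sequenced, and the 18 groups come from titles and treatment labels. Per the submitters' processing notes the tools were FastQC, Trimmomatic, featureCounts, edgeR, with the build hg38, and the series' design text names Rsubread, without versions. What the authors deposited is treated as a score. From the values, each is a log2 CPM (0.5 reads added first) times a factor of its library, chosen so that columns total 1000000. Whole reads were recovered for 100% of the values (within 0.01 of an integer, and at most 6.9e-08 away), and CPM was computed from them with the authors' effective library sizes. The depth was 32819568 to 52417050 reads per library, which puts 1 read at 0.0204 to 0.0323 CPM.

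Tests used limma version 3.58.1 under R 4.3.3, its eBayes step following the trend of variance with level, on log2(CPM + 0.5), a scale that understates changes of low genes. A gene entered when 3 or more libraries reached 1 CPM. Fits within a line held its 18 libraries and left 12 residual degrees of freedom. Line differences and mean OSU effects came from all 54 libraries, leaving 36. Tests were two-sided, with Benjamini-Hochberg adjustment over all genes of a comparison. The method was tested on simulated data. No count test was run, since the deposited unit is no count. Of the table's IDs 18917 matched RefSeq GRCh38.p14, which gave symbols, coordinates and start-site windows. Alternatives were pseudocounts of 0.1 and 2, no filter, scaling to total reads, TMM, cyclic loess, a replicate block, 1 fit of all libraries, voom weights and leaving out libraries.

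Named genes were all 8 members, up to 3 called pathway genes each way per agent with the smallest p and a mean of at least 1 CPM in that line, the 5 genes most and 3 least like PMEPA1, and the readouts KLK3, FKBP5 and TMPRSS2. A further listed gene is not reported here. The members and lists were chosen with earlier results of these data known.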

Additional observations from a re-analysis of the deposited data

Results flagged for a closer look

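Effects that differed between lines, by limma tests of the difference in the fit of all 54 libraries, were these among the 8 genes. The Enza effect on PMEPA1 was -0.306 in C4-2 relative to LNCaP, 0.44 in 22Rv1 relative to LNCaP and 0.747 in 22Rv1 relative to C4-2. The Enza effect on SKIL was -0.324 in C4-2 relative to LNCaP. The E2 effect on SMAD6 was -0.468 in 22Rv1 relative to C4-2. Groups of 3 libraries are too small for the test of single outlying samples, which was not run.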

How the results depend on the processing

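Over 310 values (a gene in a comparison) and 5504 recomputed values, none reversed in a called direction. Of 77 calls, 62 held in each alternative run and 15 were lost in at least 1, while 11 of 233 values without a call gained one in at least 1. Of 27 PMEPA1 calls 26 held in each. Pseudocounts of 0.1 and 2 changed no call. Of the counts of members called, that for E2 added to Enza in C4-2 went from 4 to 2 with no filter and to 2 in the fit of all libraries, and ranged from 1 to 4 leaving out 1 library, and that for E2 in LNCaP ranged from 2 to 4. The fit of all libraries also called PMEPA1 for OSU added to Enza in 22Rv1 (-0.261, limma adjusted p = 0.0117). Differences in the E2 effect that passed only with another scaling were SMAD6 in C4-2 against LNCaP (total reads, 0.335), SKIL in 22Rv1 against C4-2 (total reads, -0.24, and cyclic loess, -0.243) and SKI in 22Rv1 against LNCaP (-0.176) and C4-2 (-0.161), both with cyclic loess. Over all genes, Enza in 22Rv1 called 98 genes, from 55 without Enza 2 to 410 without Enza 3, E2 in C4-2 called 817, from 396 without the 4 libraries that stand apart to 1037 in the fit of all libraries, and E2 in 22Rv1 called 4118, down to 2193 without vehicle 1. Enza in C4-2 called 1184, down to 609 without Enza 2. OSU in LNCaP called 2, from 0 with no filter to 12 without vehicle 1, and OSU in 22Rv1 0, with 6 in the fit of all libraries. Enza added to E2 in 22Rv1 called 178, from 111 without E2+Enza 1 to 280 in the fit of all libraries. The cause of these moves was not tested. Replicate numbers showed no general pairing of the samples. The median correlation of same-numbered deviations was 0.014 in LNCaP, -0.003 in C4-2 and -0.001 in 22Rv1. In the same order, 6, 8 and 9 of 18 libraries were closest to their own number. Single same-numbered correlations ran from -0.175 to 0.294, -0.552 to 0.48 and -0.32 to 0.279, and pairing among some libraries was not tested. With a replicate block 1 call was lost, ID1 for E2 added to Enza in C4-2 (-0.404, limma adjusted p = 0.0582), taking that count from 4 to 3, no other call among the 8 genes changed, and with the block E2 in LNCaP called 3568 genes against 3551. At 0 to 20 reads a library, BMP7 lay below the filter in the fits of LNCaP and 22Rv1, and its changes there were not tested.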
